A study of Mus musculus with 6 samples.

Results

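The genes for secreted chemokine, interleukin and colony-stimulating factor ligands were examined in cultured cardiac fibroblasts (CFs) of wild type (WT) and CharmeKO mice. Members were taken by gene symbol: all *Ccl*, *Cxcl*, *Cx3cl* and *Xcl* chemokines, all numbered interleukins, and *Csf1*, *Csf2*, *Csf3*, *Lif*, *Osm*, *Tslp*, *Mif* and *Tnf*. Of the 19446 features in the table, 49 met this rule: 15 CC chemokines, 10 CXC chemokines, the CX3C chemokine *Cx3cl1*, 16 interleukins, 2 colony-stimulating factors and 5 other cytokines. Of these 49, 39 had at least 10 reads in at least 2 libraries and entered the test, as did 15948 genes in all. Poly(A)-selected, strand-specific RNA-seq was made of 3 WT and 3 CharmeKO libraries, each group numbered 1 to 3. Mice were on the C57BL/6J background and 5 weeks old by the sample titles, and the CharmeKO line carries a poly(A) signal inserted in the locus of *Charme*, a muscle long noncoding RNA. CFs of both genotypes were outgrowth cells from fragments of atrial tissue of littermates, grown on fibronectin in medium with 20% serum, so all values describe serum-fed cells in culture. The sources used here do not say which animals gave which library, and freshly isolated CFs were not analysed here.

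Chemokines are small secreted or membrane-bound proteins that guide leukocytes through G protein-coupled receptors, with CXC members acting mainly on neutrophils, lymphocytes and progenitor cells and CC members mainly on monocytes, macrophages, eosinophils and lymphocytes. Interleukins and colony-stimulating factors carry survival, growth and alarm signals to blood cells, and interleukin 6, interleukin 11, LIF and oncostatin M share the signalling receptor gp130, encoded by *Il6st*. In the heart, fibroblasts are a stromal source of many of these ligands, several of which are known targets of the transcription factor NF-κB.

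The stretch of 250 bases before the start site is given for 5 of the ligands, from RefSeq promoters of the GRCm38.p6 assembly. *Cxcl12* and *Cxcl15* are shown because their genotype differences had 1 sign in all replicate numbers and the lowest p-values among the ligands in blocked limma and blocked edgeR. For *Cxcl15* the sign in number 1 rests on 3 reads against 0. *Csf1* is shown because it was the most abundant ligand per kilobase, *Il6* because it was among the steadiest, and *Cxcl1* because it held several matches to an NF-κB motif. Sequences are written 5′ to 3′ on the strand of the gene, and capitals mark matches on either strand to an NF-κB motif (GGG, any 3 bases, TTCC, which reads GGAA, any 3 bases, CCC on the other strand) or to the AP-1 motif TGANTCA, which do not overlap each other here.
*Cxcl12*, chr6:117168285-117168534, plus strand: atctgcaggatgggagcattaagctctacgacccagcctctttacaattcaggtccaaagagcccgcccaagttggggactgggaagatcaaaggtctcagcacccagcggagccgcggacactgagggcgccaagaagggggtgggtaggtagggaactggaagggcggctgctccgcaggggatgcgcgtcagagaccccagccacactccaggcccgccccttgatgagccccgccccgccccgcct
*Cxcl15*, chr5:90794284-90794533, plus strand: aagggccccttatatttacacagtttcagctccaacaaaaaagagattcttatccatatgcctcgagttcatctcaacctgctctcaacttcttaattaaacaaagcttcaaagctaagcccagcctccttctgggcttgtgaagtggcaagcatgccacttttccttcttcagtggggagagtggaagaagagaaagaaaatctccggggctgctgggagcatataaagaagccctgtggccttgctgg
*Cxcl1*, chr5:90890995-90891244, plus strand: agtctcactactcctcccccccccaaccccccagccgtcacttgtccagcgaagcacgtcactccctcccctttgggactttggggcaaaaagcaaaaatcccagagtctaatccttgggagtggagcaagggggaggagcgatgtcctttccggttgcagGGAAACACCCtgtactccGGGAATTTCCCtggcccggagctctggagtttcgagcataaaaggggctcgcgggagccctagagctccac
*Il6*, chr5:30012864-30013113, plus strand: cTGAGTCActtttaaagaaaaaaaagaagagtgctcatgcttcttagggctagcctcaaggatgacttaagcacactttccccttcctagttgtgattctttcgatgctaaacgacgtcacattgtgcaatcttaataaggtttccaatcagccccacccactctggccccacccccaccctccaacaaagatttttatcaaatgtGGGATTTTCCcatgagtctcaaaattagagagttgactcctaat
*Csf1*, chr3:107760470-107760719, minus strand: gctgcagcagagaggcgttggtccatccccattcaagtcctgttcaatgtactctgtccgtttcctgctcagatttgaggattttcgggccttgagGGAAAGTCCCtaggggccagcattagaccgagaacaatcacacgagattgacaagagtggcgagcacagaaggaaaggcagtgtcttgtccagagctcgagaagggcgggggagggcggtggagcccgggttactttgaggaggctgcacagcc

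The *Cxcl12* and *Cxcl15* windows held neither motif on either strand. That of *Csf1* held 1 NF-κB match, starting 154 bases before the start site, and that of *Il6* held 1 NF-κB match at 44 bases and 1 AP-1 match at its far end, 249 bases from the start. In the *Cxcl1* window 3 NF-κB matches started at 89, 71 and 70 bases, the last 2 of them being overlapping readings of the same stretch, 1 on each strand. Promoters of 34 of the 49 ligands were matched by symbol, as 41 sequences. Of these 41, 9 held the NF-κB motif (22.0%), against 4.65% of all 32851 promoters of the same length, and they belonged to *Ccl9*, *Ccl20*, *Cxcl1*, *Cxcl2*, *Cxcl3*, *Cxcl10*, *Il6*, *Il16* and *Csf1*. The AP-1 motif stood in 8 of the 41 (19.5%) and in 6.75% of all promoters. These matches describe the letters of the windows only.

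Libraries held 38330019 to 46797446 recovered reads, so that 3 reads, the most that a count of 0 allows, correspond to 2.61 to 3.30 normalised reads, and this limit covers counting error only. The one feature of the table without an Ensembl identifier, which may be the *Charme* entry that the authors added to their annotation, had 5, 15 and 11 reads in WT and 0, 6 and 3 in CharmeKO, too few to check the genotype labels. Fibroblast markers were present throughout, with *Col1a1* at 394739, 818672 and 598199 in WT and 570333, 770463 and 614566 in CharmeKO. Levels below are normalised reads, that is, reads divided by the DESeq2 size factor of their library, and comparisons between genes use normalised reads per kilobase of exon. Differences are CharmeKO minus WT on the log2(value + 1) scale, tested two-sided with limma and adjusted over all 15948 genes. Libraries of the same number were taken as pairs, although no sample title states a pairing, and a blocked fit is one that includes the number. By correlation between libraries, numbers 1 and 2 stood apart from unequal numbers and number 3 did not.

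Of the 39 ligands tested, 0 passed an adjusted p of 0.05 in limma, as did 0 of all genes (0% called). At an unadjusted p under 0.05, limma marked 143 genes (0.897%) and none of the 39 ligands, and edgeR's quasi-likelihood test 158 genes (0.991%) and again no ligand. DESeq2 called 8 genes (0.0502%), no ligand among them, and it gave no p-value for *Cxcl15*, whose estimate in that fit was -5.23 on the log2 scale. With the number as a block, limma and edgeR still called 0 genes, while at an unadjusted p under 0.05 limma marked 857 genes (5.37%) and edgeR 768 (4.82%), both counts including the same pair of ligands, *Cxcl12* and *Cxcl15*. The blocked DESeq2 fit called 64 genes (0.401%), and *Cxcl15* was the ligand among them, with most of its reads in WT 2. The 2 genotypes had separate ranges for 656 genes (4.11%), none of them a ligand.

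Size and error were both larger for the ligands than for genes at large, which were not matched to them for level. A mean of 50 normalised reads was reached by 22 of the 49 ligands and by 12554 of the 19446 features. Whether the contrast holds at equal level was not tested. The median absolute log2 fold change was 0.46 over the 39 ligands and 0.17 over all genes tested, and the median standard error was 0.779 against 0.359. The signed median was -0.0073 for the ligands, 19 of which were higher and 20 lower in CharmeKO, against 0.0022 for all genes. Fitted differences reached 1 log2 unit in size for 8 ligands and for 804 genes in all (5.04%). They were positive for *Cxcl12* and *Il1a*, against 1.35% of all genes, and negative for *Ccl5*, *Ccl8*, *Ccl17*, *Cxcl15*, *Il15* and *Il33*, against 3.69%. None of these 8 differences exceeded the spread between libraries in limma. Leaving out CharmeKO 3 moved the median of the ligands to 0.29.

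**Figure D1:**
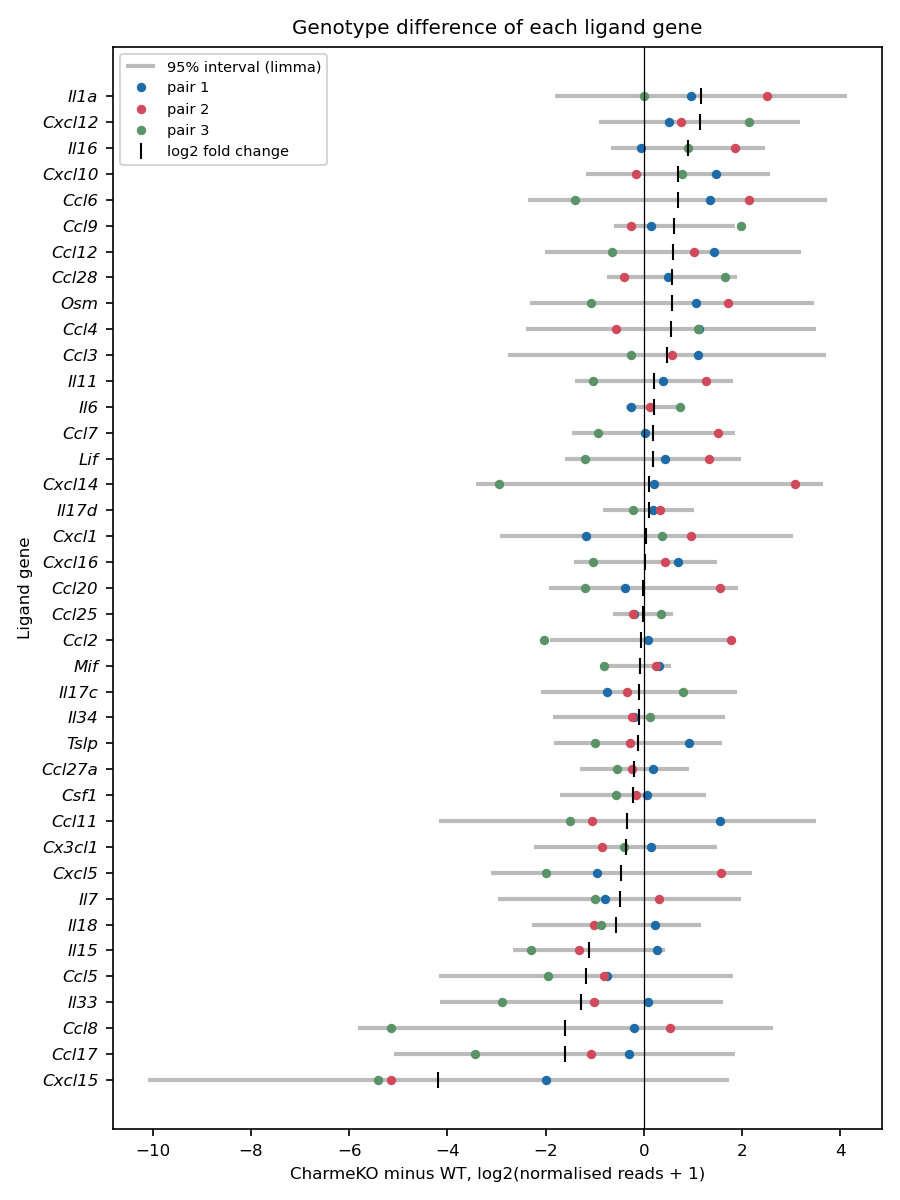
Difference between CharmeKO and WT for each of the 39 ligand genes tested, in log2(normalised reads + 1). Black ticks give the limma log2 fold change, grey bars its 95% interval and coloured points the difference within each pair of equally numbered libraries. Every grey bar crosses 0, and all 3 points lie above 0 for *Cxcl12* and below 0 for *Ccl5*, *Ccl17* and *Cxcl15*. In each of the last 3 genes, 1 point rests on at most 4 reads in either library.

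Levels of the ligands varied widely among the 6 libraries. The highest library exceeded the lowest by a median of 6.48-fold over the ligands and 2.11-fold over all genes, on value + 1. A range above 10-fold was seen for 16 of 39 ligands (41.0%) and for 10.5% of all genes. Here too the ligands were not matched to genes of like level. Genotype accounted for a median of 3.51% of the variance of a ligand and replicate number for 71.2%, against 5.91% and 73.8% over all genes. Number has more levels than genotype and takes a larger share even of unrelated noise, so these shares do not weigh the factors against each other. CharmeKO 3 was the lowest of the 6 libraries for 15 ligands (38.5%), against 17.8% of all genes, whereas WT 2, CharmeKO 1 and CharmeKO 2 were each the highest for 9 (23.1%), against 17.7%, 18.8% and 17.1% of all genes. Within pairs, 26, 21 and 11 of the 39 ligands were higher in CharmeKO in pairs 1, 2 and 3 (66.7%, 53.8% and 28.2%), where all genes gave 53.2%, 51.5% and 49.4%. The median difference of the ligands was 0.18, 0.25 and -0.87 in these pairs, so that pair 3 ran opposite to pairs 1 and 2. *Cxcl12* was the only ligand higher in CharmeKO in all 3 pairs, as were 16.4% of all genes, and *Ccl5*, *Ccl17* and *Cxcl15* were lower in all 3, as were 14.0% of all genes. In each of these last 3, 1 pair rested on few reads in WT and CharmeKO. They were 4 against 2 for *Ccl5* in pair 1, 3 against 1 for *Ccl17* in pair 2 and 3 against 0 for *Cxcl15* in pair 1. The sign of such a pair is not determined.

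**Figure D2:**
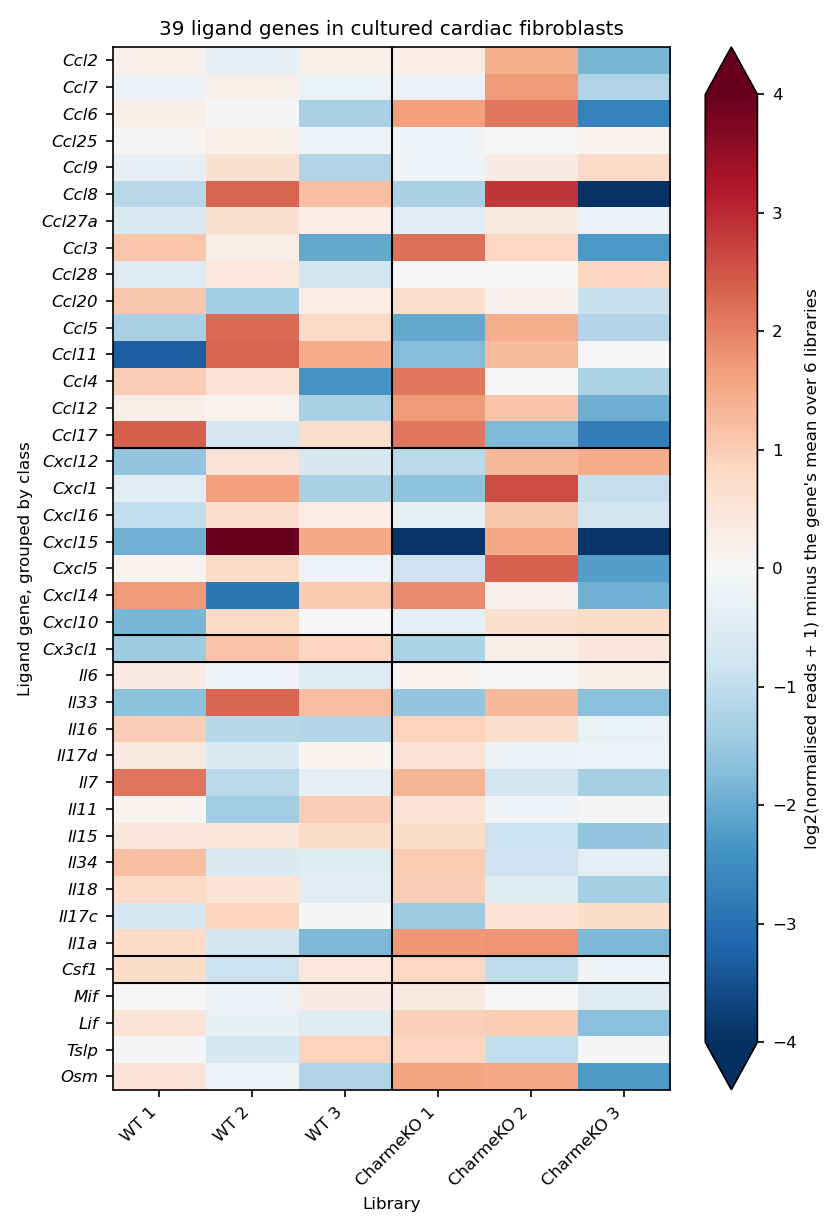
Level of the 39 ligand genes tested in each of the 6 libraries, as log2(normalised reads + 1) minus the mean of the gene over the libraries, with red above and blue below that mean and the scale ending at 4 on either side. Rows are grouped by class and ordered by mean level within a class; the CharmeKO 3 column is the lowest for 15 of the 39 genes.

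Few ligands made up nearly all of the ligand signal. Per kilobase of exon, *Csf1* averaged 19715 normalised reads, *Cxcl12* 18693 and *Mif* 13297, and these 3 genes together held a mean of 84.4% of the summed ligand signal. *Ccl7* followed at 2446, *Ccl2* at 2016, *Lif* at 1355 and *Il6* at 921, bringing the share to 95.2%. The leading ligand changed between libraries. *Csf1* took 53.3%, 19.2% and 42.3% of the signal in WT 1, 2 and 3 and 49.2%, 11.6% and 23.2% in CharmeKO 1, 2 and 3. The share of *Cxcl12* was 8.28%, 39.1% and 15.7% in WT and 10.4%, 44.9% and 56.5% in CharmeKO. *Cxcl12* thus exceeded *Csf1* in WT 2, CharmeKO 2 and CharmeKO 3 and stood below it in the other 3 libraries. The shares of *Csf1*, *Cxcl12* and *Mif* overlapped over the libraries, so their order did not exceed the spread, and those of *Ccl7* and *Ccl2* overlapped likewise.

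Among the CXC chemokines, *Cxcl12* (chr6:117168535-117181367, GRCm38) encodes stromal cell-derived factor 1, which binds CXCR4 and ACKR3 and holds blood and progenitor cells in stromal niches. It had 37411, 162300.1 and 71757 normalised reads in WT 1, 2 and 3 and 53186, 275356 and 316987 in CharmeKO 1, 2 and 3. Within every number the CharmeKO library was the higher, but WT 2 lay above CharmeKO 1, so the groups overlapped. The difference did not exceed the spread between libraries in limma (log2 fold change 1.14, SE 0.855, 95% interval -0.91 to 3.19, adjusted p = 0.9999). The differences within pairs 1, 2 and 3 were 0.51, 0.76 and 2.14. With the number as a block the standard error fell to 0.387, with an unadjusted p of 0.0371 and an adjusted p of 0.800 in limma, and blocked DESeq2 on all 3 pairs gave an adjusted p of 0.9997. Blocked DESeq2 was also fitted to 2 pairs at a time, a choice made with the data seen that leaves 1 residual degree of freedom. The adjusted p was 0.0314 without pair 1 (0.947% of genes called), 0.431 without pair 2 (0.078%) and 0.0413 without pair 3 (0.554%). Leaving out 1 library at a time kept the difference between 0.63 and 1.96.

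*Cxcl15*, which encodes the neutrophil attractant lungkine, covered the widest range of all ligands. It was measured at 2.95, 1576 and 41.7 normalised reads in WT 1, 2 and 3 and 0, 43.3 and 0 in CharmeKO 1, 2 and 3. The single value of WT 2 stood far above the rest, and CharmeKO 1 and 3 had no read, which allows up to 2.88 and 2.61 normalised reads. CharmeKO 2 exceeded WT 1 and WT 3, so the groups overlapped, although the CharmeKO library was the lower in every pair. In pair 1 this rested on 3 reads against 0, which does not determine the sign. Limma gave log2 fold change -4.19, SE 2.47, 95% interval -10.10 to 1.72 and an adjusted p of 0.9999, and with the block an unadjusted p of 0.00551. Blocked DESeq2 called the gene lower in CharmeKO (adjusted p = 3.51e-10), its estimate being -5.42 on the log2 scale. DESeq2 without the block gave -5.23 and no p-value for the same reads. The adjusted p of the blocked fit was 9.34e-09 without pair 1 and 5.92e-17 without pair 3. WT 2 had 1476 reads and every other library 0 to 44, so the blocked call rests largely on pair 2. Without that pair the gene no longer passed the filter. Leaving out WT 2 alone moved the limma difference to -1.88.

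*Cxcl1* and *Cxcl5* encode attractants of neutrophils that act through CXCR2, and the transmembrane chemokine of *Cxcl16* binds CXCR6. *Cxcl1* had 316, 1349.6 and 175 normalised reads in WT 1, 2 and 3 and 138, 2623 and 227 in CharmeKO 1, 2 and 3, and *Cxcl5* had 143, 225 and 114.3 in WT and 73.1, 674 and 27.8 in CharmeKO. Both genes were highest in CharmeKO 2 and next highest in WT 2, and the groups overlapped. Their log2 fold changes were 0.05 (SE 1.24) and -0.46 (SE 1.11). *Cxcl16* had 226, 705 and 544 in WT and 367, 953 and 264 in CharmeKO (log2 fold change 0.031, SE 0.610), again highest in the libraries numbered 2. Of the remaining CXC ligands, *Cxcl10* and *Cxcl14* stayed below 100 normalised reads in every library. *Cxcl2*, *Cxcl3* and *Cxcl13* did not pass the filter. *Cxcl13*, which encodes a B cell attractant, was a case of 1 library, named after its values were seen: it had 937 normalised reads in CharmeKO 3 and 0.961 to 6.89 in the other five.

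**Figure D3:**
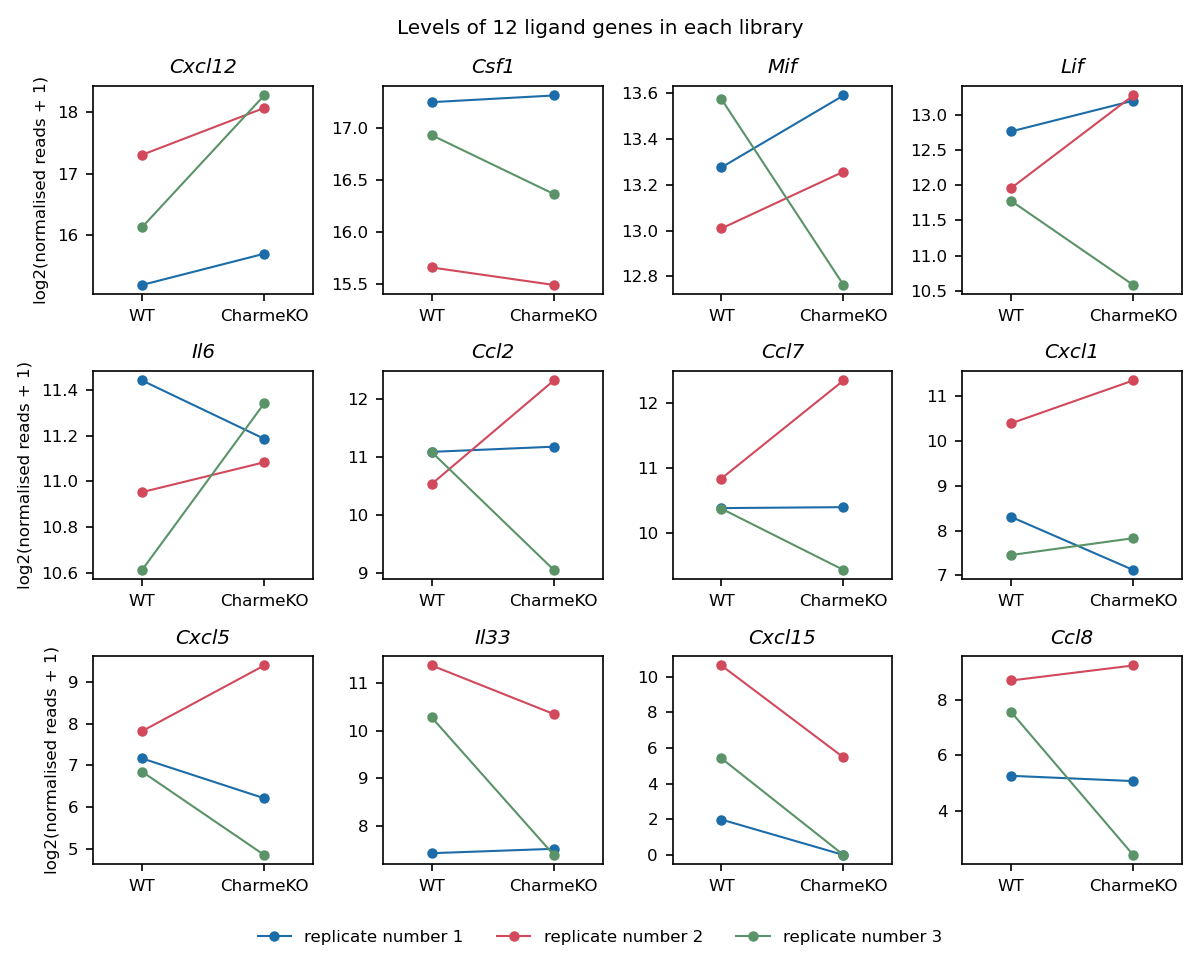
Levels of 12 ligand genes in each library, in log2(normalised reads + 1), with a line joining the WT and CharmeKO library of the same replicate number. Vertical axes differ between panels and do not start at 0. All 3 lines rise for *Cxcl12* and fall for *Cxcl15*, while those of *Ccl2*, *Ccl7* and *Lif* rise in pair 2 and fall in pair 3. The *Cxcl15* line of pair 1 rests on 3 reads against 0.

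All 15 CC chemokines passed the filter, 7 of them higher and 8 lower in CharmeKO, with fold changes from -1.61 to 0.69 on the log2 scale. *Ccl2* and *Ccl7*, neighbours on chromosome 11 (*Ccl2* at chr11:82035571-82037453 and *Ccl7* at chr11:82045712-82047525, GRCm38), encode the monocyte chemoattractants that act through CCR2. *Ccl2* had 2174, 1483 and 2169 normalised reads in WT 1, 2 and 3 and 2313, 5095 and 531 in CharmeKO 1, 2 and 3. *Ccl7* had 1337, 1833 and 1329 normalised reads in WT 1, 2 and 3 and 1351, 5213 and 691 in CharmeKO 1, 2 and 3. In WT the 3 libraries lay close together, and in CharmeKO both genes were highest in CharmeKO 2 and lowest in CharmeKO 3, on either side of WT. The log2 fold changes were -0.053 (SE 0.771) and 0.19 (SE 0.693), and without CharmeKO 3 they became 0.84 and 0.84.

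The same stretch of chromosome 11 holds *Ccl8*, whose product attracts monocytes and lymphocytes. *Ccl8* had 37.4, 412 and 188 normalised reads in WT 1, 2 and 3 and 32.7, 599.7 and 4.35 in CharmeKO 1, 2 and 3. Its lowest value was in CharmeKO 3, libraries numbered 2 were highest in both genotypes, and the groups overlapped (log2 fold change -1.60, SE 1.76, 95% interval -5.83 to 2.63). Without CharmeKO 3 the difference shrank to -0.019. *Ccl11* (eotaxin) and *Ccl12* lie between these genes and had at most 48.0 and 33.7 normalised reads. *Ccl11* was highest in WT 2 and, like *Ccl8*, highest in number 2 within each genotype, whereas *Ccl12* was highest in CharmeKO 1.

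A second group on chromosome 11, from *Ccl5* (start 83525778) to *Ccl4* (end 83664683), holds *Ccl9*, *Ccl6* and *Ccl3* between them, myeloid-type chemokines that attract monocytes, dendritic cells and lymphocytes. *Ccl6* had 301, 241 and 101 normalised reads in WT 1, 2 and 3 and 772, 1068 and 37.4 in CharmeKO 1, 2 and 3. CharmeKO 1 and 2 exceeded every WT library and CharmeKO 3 lay below all of them (log2 fold change 0.69, SE 1.27, 95% interval -2.35 to 3.74). Blocked DESeq2 on all 3 pairs gave 0.79 on the log2 scale with an adjusted p of 0.9997. Fitted with the data seen, it gave 0.38 without pair 1 (adjusted p = 0.9999), 0.0048 without pair 2 (adjusted p = 1.000) and 1.74 without pair 3 (adjusted p = 1.24e-04, 0.554% of genes called). *Ccl9* had 162, 309.6 and 87.9 in WT and 179.8, 259 and 349 in CharmeKO (log2 fold change 0.62, SE 0.517), highest in CharmeKO 3 and thus unlike its neighbour. Its difference was 0.18 without WT 3 and 1.08 without WT 2. *Ccl3*, *Ccl4* and *Ccl5* had at most 81.7 normalised reads, with *Ccl3* and *Ccl4* highest in CharmeKO 1 and *Ccl5* in WT 2.

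Macrophage marker genes, taken as a sum, varied in a similar order over the libraries. Of 24 markers, 22 were in the table and 20 passed the filter, and their summed level was 11229, 6129.7 and 2443 normalised reads in WT 1, 2 and 3 and 24041, 14970.0 and 1271 in CharmeKO 1, 2 and 3. Of the 20, 13 were higher and 7 lower in CharmeKO, and 0 passed the adjusted threshold. In blocked limma 2 had an unadjusted p under 0.05, both with positive differences, against 5.37% of all genes. *Ptprc* and *Itgam* were named after their values were seen. *Ptprc*, which encodes the leukocyte antigen CD45, had 169, 44.8 and 29.7 in WT and 255, 60.0 and 0 in CharmeKO. *Itgam* was also at 0 in CharmeKO 3. *Csf1r*, on the same list, departed from the order of the sum. Its values, given with *Csf1* below, were higher in WT 3 than in WT 2 and nearly equal in CharmeKO 2 and CharmeKO 3. *Ccl3*, *Ccl4*, *Ccl6*, *Ccl12*, *Osm* and *Tnf* were set beside the markers after their values were seen. Like the marker sum, they had higher levels in libraries 1 and 2 of each genotype than in library 3. For *Osm* and *Tnf* the WT order rested on few reads, 3 against 1 and 2 against 1 in WT 2 and WT 3. Such reads do not determine the order, and *Tnf* did not pass the filter. *Ccl9* did not follow the marker sum and was highest in CharmeKO 3. The part of macrophages in these ligands was not tested. In bulk RNA, fewer cells of a type and less RNA per cell cannot be told apart.

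*Ccl25*, which encodes the thymus and gut chemokine that binds CCR9, was the steadiest ligand, with 240.3, 272 and 201 in WT and 209, 235 and 255 in CharmeKO. Its log2 fold change was -0.025 with a 95% interval of -0.64 to 0.59. *Ccl17*, *Ccl20*, *Ccl27a* and *Ccl28* were at 110.0 normalised reads or below, and the value of *Ccl27a* is uncertain because the mouse genome holds near-identical copies of it. *Cx3cl1*, next to *Ccl17* on chromosome 8, encodes fractalkine, an adhesive chemokine tethered to the membrane. *Cx3cl1* had 276, 1614 and 1328 normalised reads in WT 1, 2 and 3 and 306, 895 and 1009.8 in CharmeKO 1, 2 and 3. Both libraries numbered 1 were the lowest, and the groups overlapped (log2 fold change -0.37, SE 0.777).

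Of the 16 interleukins, 11 passed the filter, 5 higher and 6 lower in CharmeKO. *Il6* (chr5:30013114-30019981, GRCm38) encodes the acute-phase cytokine of the gp130 family. *Il6* had 2782, 1982 and 1564 normalised reads in WT 1, 2 and 3 and 2331, 2169.8 and 2594 in CharmeKO 1, 2 and 3. These values differed by at most 1.78-fold, among the narrowest ranges of the ligands, and the groups overlapped (log2 fold change 0.20, SE 0.237, 95% interval -0.37 to 0.77). The difference was 0.0064 without WT 3 and 0.42 without WT 1. *Il11*, another gp130 cytokine that is known to act on fibroblasts, had 14.9 to 81.3 normalised reads, with both extremes in WT.

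*Il33* encodes a nuclear alarm cytokine of the interleukin 1 family whose receptor ST2 is the product of *Il1rl1*. *Il33* had 171, 2647 and 1241 normalised reads in WT 1, 2 and 3 and 183, 1305 and 167 in CharmeKO 1, 2 and 3. In libraries numbered 1 the genotypes were nearly equal, and in pairs 2 and 3 CharmeKO was lower (log2 fold change -1.27, SE 1.20, 95% interval -4.15 to 1.61). Without pair 1, a choice made after seeing the data, blocked DESeq2 gave -1.95 on the log2 scale with an adjusted p of 0.0173, and on all 3 pairs an adjusted p of 0.590. Without pair 2 it gave -1.40 (adjusted p = 1.000) and without pair 3 -0.50 (adjusted p = 0.9998). In limma the difference was -2.40 without WT 1 and -0.43 without WT 2. The receptor gene *Il1rl1* had 8.86, 53.4 and 2103 in WT and 55.8, 103 and 6.96 in CharmeKO, so that WT 3 alone was high.

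*Il16*, which encodes a T cell attractant that binds CD4, had 967, 219 and 215 normalised reads in WT 1, 2 and 3 and 929, 791 and 402 in CharmeKO 1, 2 and 3. WT 2 and WT 3 were the lowest libraries and WT 1 was the highest (log2 fold change 0.90, SE 0.655, 95% interval -0.67 to 2.47), and a pseudogene, *Phgdh-ps1*, overlaps the gene on the same strand. Without WT 1 the difference of *Il16* was 1.61, and without WT 3 it was 0.53. *Il7*, a growth factor of lymphocytes, had 401, 42.7 and 72.5 in WT and 233, 53.1 and 35.7 in CharmeKO, highest in both libraries numbered 1 (log2 fold change -0.49, SE 1.03). *Il17d*, a cytokine of the interleukin 17 family, had 215, 111.04 and 176 in WT and 245, 141 and 150.5 in CharmeKO (log2 fold change 0.10, SE 0.386). The other 6 interleukins tested were *Il1a*, *Il11*, *Il15*, *Il17c*, *Il18* and *Il34*, all below 100 normalised reads, and *Il17c* overlaps *Gm20388* on the same strand. *Il15*, named after its values were seen, had 52.2, 53.4 and 63.7 in WT and 63.5, 20.6 and 12.2 in CharmeKO, with CharmeKO 2 and 3 below the rest (log2 fold change -1.12, SE 0.648). *Il2*, *Il5*, *Il17b*, *Il19* and *Il23a* did not pass the filter.

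*Csf1* (chr3:107741048-107760469, GRCm38, minus strand) encodes macrophage colony-stimulating factor, the growth factor on which most tissue macrophages depend. *Csf1* had 155559.8, 51572 and 124767 normalised reads in WT 1, 2 and 3 and 162658, 45898 and 84243 in CharmeKO 1, 2 and 3. The order of the numbers was the same in both genotypes, with number 1 highest and number 2 lowest, and the pairs differed by 0.064, -0.17 and -0.57 (log2 fold change -0.22, SE 0.622, 95% interval -1.72 to 1.27). Its receptor gene *Csf1r* had 1427, 294 and 358 in WT and 1447, 336 and 329.6 in CharmeKO, high in both libraries numbered 1. *Il34*, the other ligand of this receptor, was also highest there, with 83.7, 23.5 and 25.3 in WT and 73.1, 19.7 and 27.8 in CharmeKO. *Csf3* did not pass the filter, its highest value being 22.6 in CharmeKO 2.

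*Mif* and *Lif* were the remaining abundant cytokines. *Mif* encodes a cytokine that is made by most cells and signals through CD74. *Mif* had 9919, 8246 and 12199 normalised reads in WT 1, 2 and 3 and 12332, 9792 and 6949 in CharmeKO 1, 2 and 3. These values lay in a narrow range and the groups overlapped (log2 fold change -0.083, SE 0.268, 95% interval -0.72 to 0.56). *Lif*, which encodes leukemia inhibitory factor of the gp130 family, had 6967, 3981 and 3513 normalised reads in WT 1, 2 and 3 and 9433, 9932 and 1532 in CharmeKO 1, 2 and 3. CharmeKO 1 and 2 exceeded all WT libraries and CharmeKO 3 was the lowest (log2 fold change 0.19, SE 0.743, 95% interval -1.60 to 1.97). Without CharmeKO 3 the difference was 1.07. *Osm*, which lies beside *Lif* on chromosome 11, had at most 13.5 normalised reads, *Tslp* at most 28.6, and *Tnf* did not pass the filter.

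Receptors for these ligands were unevenly represented. Of 15 CC receptor genes, 6 were in the table and 5 passed the filter, the most abundant being *Ccr1* at 149, 12.8 and 20.9 in WT and 203, 40.3 and 0.870 in CharmeKO. *Ackr3* and *Cxcr4*, the receptors of CXCL12, were the only CXC, CX3C or XC receptors to pass. *Ackr3* had 612, 707 and 263 in WT and 663, 608 and 47.8 in CharmeKO and *Cxcr4* 44.3, 4.27 and 4.39 in WT and 51.9, 18.7 and 0 in CharmeKO. Both were lowest in CharmeKO 3, the library with the most *Cxcl12*. *Ackr3*, however, was highest in WT 2, the WT library with the most *Cxcl12*. Interleukin receptors were more abundant, with 28 of 38 passing, 14 higher and 14 lower in CharmeKO. *Il6st* had 32274, 78231 and 22555 in WT and 30392, 37061 and 51405 in CharmeKO (log2 fold change 0.008, SE 0.493). *Il4ra*, the shared receptor chain for interleukins 4 and 13, had 9296, 13872 and 15254 in WT and 9656, 22797 and 23538 in CharmeKO and was higher in CharmeKO in all 3 pairs. Among receptors of colony-stimulating factors, gp130 cytokines and TNF, 10 of 12 passed, 6 higher and 4 lower, including *Osmr* (0.19, SE 0.444) and *Lifr* (0.43, SE 0.852). *Cd74*, the receptor of MIF, did not pass the filter, with at most 14.9 normalised reads. No receptor passed the adjusted threshold in limma, and without the block none had an unadjusted p under 0.05. In blocked limma the unadjusted p was 0.0437 for *Il4ra* and 0.0488 for *Il17ra*, both with higher fitted values in CharmeKO, and 0.0362 for *Tnfrsf1b*, with a lower one, each with an adjusted p of 0.800. That fit gave an unadjusted p under 0.05 for 5.37% of all genes, so a few such receptors are no excess.

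Genes known to respond to NF-κB and to gp130 signalling were also counted. All 28 NF-κB response genes passed the filter, 18 higher and 10 lower in CharmeKO, with a median log2 fold change of 0.078, and 0 passed the adjusted threshold. In blocked limma 2 of the 28, *Tnip1* and *Nfkbie*, had an unadjusted p under 0.05, both with positive differences. This is near the 5.37% of all genes. *Saa3*, an acute-phase gene, had 36.4, 525 and 163 normalised reads in WT 1, 2 and 3 and 66.3, 73492 and 368 in CharmeKO 1, 2 and 3. The peak in CharmeKO 2 coincided with the highest values of *Ccl2*, *Ccl7*, *Cxcl1* and *Cxcl5*. *Vcam1* had 46268, 17303 and 21178 in WT and 42846, 19321 and 47795 in CharmeKO and *Ptgs2* 10689, 3719 and 21646 in WT and 7597, 5529 and 701 in CharmeKO, neither with its highest value in that library. All 16 gp130 response genes passed, 12 higher and 4 lower, with a median of 0.25 and 0 past the adjusted threshold. In blocked limma 4 of the 16 had an unadjusted p under 0.05, as did 5.37% of all genes. *Cebpb*, *Cebpd* and *Hp* had positive differences and *Socs2* a negative one. *Serpina3n*, an acute-phase protease inhibitor, had 8721, 14829 and 10525 in WT and 10657, 48198 and 10672 in CharmeKO, with its highest value again in CharmeKO 2. *Cebpb*, which encodes a transcription factor of the acute-phase response, was higher in CharmeKO in all 3 pairs, at 10703, 21081 and 13921 in WT and 13098, 34746 and 23099 in CharmeKO (unadjusted p = 0.0106 in blocked limma, adjusted p = 0.800). Whether these genes and the ligands move for one reason was not tested.

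**Figure D4:**
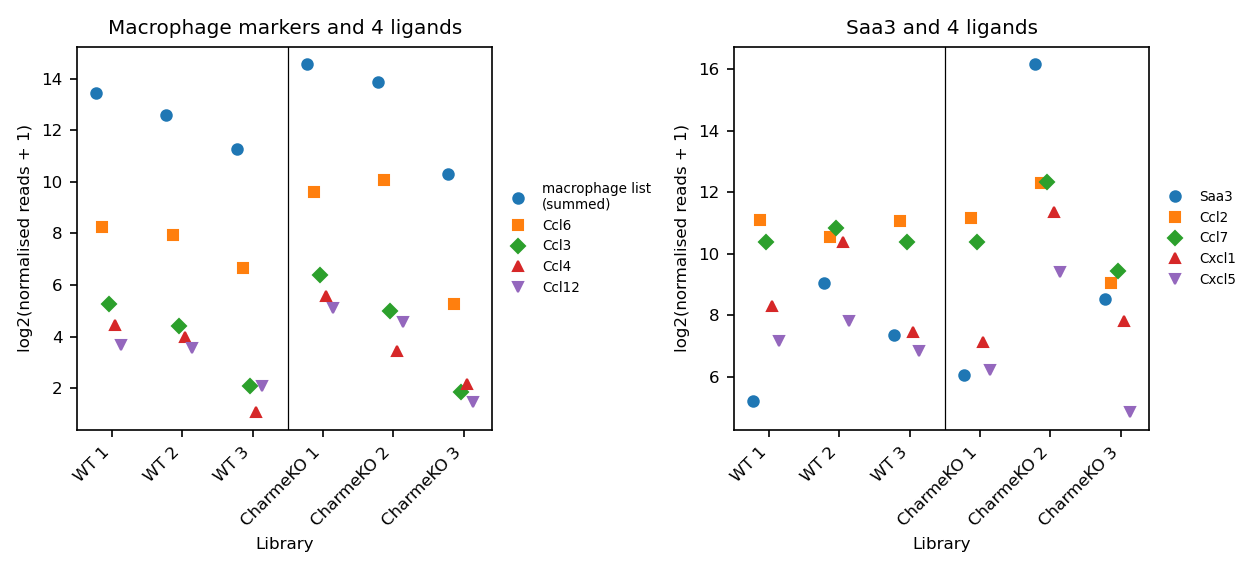
Levels in each of the 6 libraries, in log2(normalised reads + 1). The ligands shown were picked after their values were seen. The left panel shows the summed level of the macrophage marker list with 4 CC chemokine genes, all lower in the libraries numbered 3 than in those numbered 1, and the right panel shows the acute-phase gene *Saa3* with *Ccl2*, *Ccl7*, *Cxcl1* and *Cxcl5*, all of which have their highest value in CharmeKO 2.

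Of 26 further cytokine ligands outside the rule, including TNF superfamily members and growth factors of blood cells, 21 were in the table and 17 passed, 8 higher and 9 lower in CharmeKO, with a median log2 fold change of -0.028. None passed the adjusted threshold. *Spp1*, which encodes osteopontin, had 6489, 10824 and 68722 in WT and 15320.5, 10082 and 29508 in CharmeKO, and *Tnfsf15* had 5563, 523 and 588 in WT and 7199, 1375 and 34.8 in CharmeKO. *Tnfsf15* was lowest in CharmeKO 3, in the same library as *Lif* and *Ccl2*. Markers of other cell types were also tested, and 1 gene reached an unadjusted p under 0.05 in limma, against 0.897% of all genes. It was the mural cell marker *Cspg4*, which had 450.1, 676 and 3663 in WT and 241, 105 and 25.2 in CharmeKO (log2 fold change -3.56, SE 1.05, adjusted p = 0.9999). Mural markers had negative differences for 10 of 11 genes, with a median log2 fold change of -1.53. Of the 11, 7 were lower in CharmeKO in all 3 pairs, as were 14.0% of all genes. Their summed level was 129006, 51750 and 198869 in WT and 117555, 31658 and 52707 in CharmeKO, so the groups overlapped. The paper used αSMA, encoded by *Acta2*, to follow conversion of CFs to myofibroblasts, so this list does not mark mural cells alone. In blocked limma 4 of the 11, all with negative differences, had an unadjusted p under 0.05 (*Acta2*, *Cspg4*, *Myh11* and *Abcc9*), against 5.37% of all genes. Blocked DESeq2 called *Myh11* (adjusted p = 6.42e-04), against 0.401% of all genes. Mesothelial markers summed to 13927 and 15815 normalised reads in WT 1 and CharmeKO 1 and to 1037 to 5738 in the other libraries, which places libraries numbered 1 apart in these markers as in *Il7* and *Csf1r*. Fibroblast, endothelial, cardiomyocyte and other leukocyte lists had 12, 7, 2 and 1 genes that passed the filter, with 0 past the adjusted threshold. The part of any of these cells in the ligand levels was not tested.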

How the data were processed

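Cultured mouse CFs were profiled as 3 WT and 3 CharmeKO libraries, with groups and numbers taken from the sample titles. The authors aligned reads with STAR, counted them per gene on the reverse strand, with *Charme* added to an Ensembl annotation, left out genes of very low count and applied DESeq2 normalisation. The submitters' processing notes list GRCm39. STAR drops reads that fit several places or genes, so near-identical genes are undercounted. The deposited table holds this normalised read signal, reads divided by a size factor per library. Reads were recovered by division by each library's value of 1 read, and 100% of 116676 values came out whole within 1e-06. No sequence read was realigned.

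Log2(value + 1) was fitted with limma 3.58.1 with a trend and no term but genotype, on 15948 genes that reached 10 reads in 2 or more libraries, adjusted by Benjamini and Hochberg at 0.05, two-sided. Fold changes on this scale understate changes of low genes. edgeR 4.0.16 and DESeq2 1.42.0, both in R 4.3.3, were fitted to recovered reads as alternatives. Other pseudocounts, filters and scalings, replicate blocks and leaving out each library were further alternatives. The fits were also run on simulated data with the same dispersion for all genes and no effect of replicate number. That run does not show how they perform on data like these. Libraries numbered 1 and 2 deviated together from their group means (r = 0.762 and 0.514, against -0.643 to 0.222 for unequal numbers). For number 3 r was 0.217, below the 0.222 of WT 2 with CharmeKO 3, so the data did not set that pair apart. The numbers were taken to pair libraries in all fits with a block, although no sample title states a pairing. The study's methods describe independent isolations of primary cells, and the sources used here do not say which animals gave which library, so p-values measure the spread between these libraries. Gene names came from the table, exon lengths and coordinates from GENCODE M21 (GRCm38) by gene identifier, and promoters from RefSeq. Named ligands were the 20 with the highest mean among those tested, those whose groups did not overlap and those with p under 0.05; of each other list, up to 4 with the highest mean and those with p under 0.05. Members and lists were chosen with earlier results of these data known. Python 3.11.15 with matplotlib 3.10.9 served for the figures.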

Additional observations from a re-analysis of the deposited data

How the results depend on the processing

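The filter on low reads kept 10 of the 49 ligands out of the test, and for the 39 tested the spread between 3 libraries a group limits the precision. Of all genes, 8 passed the adjusted threshold in DESeq2, 64 in DESeq2 with the replicate block, and 145, 12 and 86 in that blocked fit without pair 1, 2 and 3, against 0 in limma. Ligands past the threshold numbered 1 in blocked DESeq2 (*Cxcl15*), 3 without pair 1 (*Cxcl12*, *Cxcl15* and *Il33*), 0 without pair 2 and 3 without pair 3 (*Ccl6*, *Cxcl12* and *Cxcl15*). DESeq2 without the block gave *Cxcl15* no p-value. The fits without a pair were chosen after seeing the data. Without each library in turn, limma called 0 genes and 0 ligands, and the median over the ligands ran from -0.18 to 0.29.

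Directions of some differences turned, and the cause was not tested. *Ccl25* was 0.0096 with library totals, 0.059 without pair 1 and 0.075 without pair 2. *Ccl2* was 0.45 in edgeR and in DESeq2 and 0.93 without pair 3, and *Cxcl5* was 0.69, 0.68 and 0.32 in these fits. Without pair 1 *Cxcl16* was -0.31. Without pair 2 *Cxcl16* was -0.17, *Ccl7* -0.46, *Cxcl1* -0.40, *Il17d* -0.0090 and *Lif* -0.37. Without pair 3 *Ccl9* was -0.064, *Ccl8* 0.22, *Cxcl1* -0.12, *Il6* -0.071 and *Mif* 0.27. Leaving out 1 library turned the direction of 13 of the 20 named ligands (5, 3 and 4 without WT 1, 2 and 3 and 4, 6 and 4 without CharmeKO 1, 2 and 3), none of them past the threshold, with ranges of -0.79 to 0.84 (*Ccl2*), -0.62 to 0.84 (*Ccl7*), -0.18 to 2.22 (*Ccl6*), -0.14 to 0.078 (*Ccl25*), -1.17 to 0.18 (*Cx3cl1*), -1.24 to 0.89 (*Cxcl1*), -0.51 to 0.42 (*Cxcl16*), -1.75 to 0.53 (*Cxcl5*), -0.70 to 0.23 (*Csf1*), -0.17 to 0.31 (*Il17d*), -1.29 to 0.45 (*Il7*), -0.28 to 0.14 (*Mif*), -0.28 to 1.07 (*Lif*). Of 279 values for the 20 named ligands over 14 other settings, 252 kept their direction and their side of the threshold and 20 turned direction. Other filters and the block left the limma estimates unchanged, so those settings could not turn a direction.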
